A study of Mus musculus with 26 samples.

Results

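The 10 genes described here belong to squamous epithelium and were followed through the AOM–DSS model of colitis-associated colorectal cancer. They were *Trp63*, *Dsg3*, *Dsc3*, *Dsg2*, *Sprr1a*, *Sprr1b*, *Sprr3*, *Ivl*, *Perp* and *Sfn*. They are 10 of the 35975 genes to which the deposited transcripts were summed. They were chosen with their summed counts in these libraries known, so their levels are given here as a description and carry no test. Colon tissue of wild-type male C57BL/6J mice, about 10 weeks old at the start, was sequenced as bulk polyA RNA in 26 libraries. The mice ate a standard diet (STD) or a diet with GW3965 (GW), a synthetic agonist of the nuclear receptor LXR. Mice of the day 22, 43 and 70 groups received the carcinogen azoxymethane (AOM) by injection and dextran sodium sulfate (DSS), which injures the colonic epithelium, in the drinking water, with 3 libraries per diet and day. The study's methods describe 3 cycles of DSS and place day 22 after the first, so that day and number of cycles cannot be told apart. The day 0 groups received neither agent and held 4 libraries per diet, 2 after 22 and 2 after 43 days of the diet. According to the methods, biopsies were taken from distal colon. The study's reporting summary speaks of pooled biological replicates for bulk RNA-seq, whereas another passage counts mice per time point, so whether a library is 1 mouse or a pool is not settled. The p-values measure the spread between these samples.

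Squamous epithelium is built of stacked keratinocyte layers. The transcription factor p63, encoded by *Trp63*, keeps the basal layer, desmosomal cadherins (desmogleins and desmocollins) tie the cells together, and upper layers cross-link small proline-rich proteins and involucrin under the membrane into a cornified envelope. The colon is lined by a single layer of columnar cells instead, which form desmosomes with DSG2, the cadherin of simple epithelia. Its distal end meets the squamous epithelium of the anal canal and the skin beyond it. PERP is a desmosomal membrane protein and target of p53 and p63, and *Sfn* encodes 14-3-3 sigma, an epithelial cell cycle regulator induced by p53. Small proline-rich genes, *Sprr1a* above all, are also known to be expressed by columnar epithelium under injury.

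Total counts ran from 18195345 to 41522204 per library with a median of 20424701. The 6 day 43 libraries differed from the others in RNA quality. Their RNA integrity numbers (RIN, out of a best score of 10) were 2.6 to 9.3, against 9.1 or more in the other libraries, and ribosomal protein genes took 10.0% to 18.6% of their counts, against 3.96% to 10.7% elsewhere. Diet and cage cannot be told apart at days 0, 22 and 43, where each diet of a day came from 1 cage. Within a diet, days 22 and 43 shared a cage and day 0 came from another, so that treatment and cage cannot be told apart in any comparison of day 22 or 43 with day 0. Each day 70 library had a cage of its own, none of them a day 0 cage. Day 70 was thus compared with the 1 day 0 cage of its diet, and treatment and cage are not separated there either. One day 0 library was titled GW3965 but carried the standard diet in another label, and was placed by its title. In bulk tissue, fewer cells of a type and less RNA per cell cannot be told apart. The columnar markers *Epcam*, an epithelial adhesion molecule, and *Krt8*, a keratin of simple epithelia, were high in every library, at 436 to 2235 and 987 to 7612 CPM (counts scaled to library size, corrected by the trimmed mean of M-values, TMM), so that each library held columnar epithelium as its colon label says.

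The sequences that separate these genes from each other come first, since the counts rest on them. *Trp63* (GRCm38 chr16:25683763-25892102, plus strand) has an upstream promoter that gives TA transcripts with an activation domain and an internal one, 118153 bases further on, that gives the delta-N transcripts of basal keratinocytes. The files list 4 transcripts of each class. In the lines below, read from the reference genome, capitals mark the 42 coding bases found only in that class (chr16:25802060-25802101 for delta-N and chr16:25764255-25764296 for TA) and lower case the first 20 bases of the next exon, which both share (chr16:25820388-25820407).
Trp63 delta-N: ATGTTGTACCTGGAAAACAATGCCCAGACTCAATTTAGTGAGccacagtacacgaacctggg
Trp63 TA: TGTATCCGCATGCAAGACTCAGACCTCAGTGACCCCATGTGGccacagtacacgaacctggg

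*Sprr1b*, *Sprr3*, *Sprr1a* and *Ivl* lie on the minus strand of the epidermal differentiation cluster on chromosome 3, between bases 92436809 and 92573735. *Sprr1a* (chr3:92483952-92485895) and *Sprr1b* (chr3:92436809-92438789) are close paralogues, shown here because their levels differed although their sequences are alike. Of the first 90 coding bases, 15 differ, which are in capitals. No 31-base word of either gene occurs in a transcript of another gene, so that reads of that length can be told apart.
Sprr1a, chr3:92484603-92484692, minus strand: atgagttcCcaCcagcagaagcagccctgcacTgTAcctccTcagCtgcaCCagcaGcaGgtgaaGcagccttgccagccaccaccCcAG
Sprr1b, chr3:92437478-92437567, minus strand: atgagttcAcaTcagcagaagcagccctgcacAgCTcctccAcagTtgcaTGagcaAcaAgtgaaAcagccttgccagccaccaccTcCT

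RefSeq promoters (GRCm38.p6) were given for 5 of the 10 members. The 250 bases upstream of the start are shown for the 4 members of the chromosome 3 cluster, which were all higher in day 70 libraries of the standard diet than at day 0. Capitals mark the letters TGANTCA, the motif of the AP-1 factors that drive envelope genes in keratinocytes, and TATAAA, the TATA box, each searched on both strands.
Sprr1a, chr3:92485882-92486131, minus strand: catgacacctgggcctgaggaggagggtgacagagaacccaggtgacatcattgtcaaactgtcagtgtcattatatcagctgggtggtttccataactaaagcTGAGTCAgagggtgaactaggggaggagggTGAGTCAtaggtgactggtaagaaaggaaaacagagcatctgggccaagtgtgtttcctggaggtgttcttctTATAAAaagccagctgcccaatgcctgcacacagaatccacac
Sprr1b, chr3:92438780-92439029, minus strand: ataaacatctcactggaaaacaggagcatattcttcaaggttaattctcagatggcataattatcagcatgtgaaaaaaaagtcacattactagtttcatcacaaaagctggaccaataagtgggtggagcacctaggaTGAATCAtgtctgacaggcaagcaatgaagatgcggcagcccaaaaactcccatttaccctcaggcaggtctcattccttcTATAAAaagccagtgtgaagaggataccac
Sprr3, chr3:92458721-92458970, minus strand: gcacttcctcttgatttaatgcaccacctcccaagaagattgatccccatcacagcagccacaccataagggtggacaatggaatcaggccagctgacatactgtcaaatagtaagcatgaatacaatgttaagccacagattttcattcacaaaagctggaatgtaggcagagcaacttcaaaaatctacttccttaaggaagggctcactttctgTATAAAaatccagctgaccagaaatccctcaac
Ivl, chr3:92573736-92573985, minus strand: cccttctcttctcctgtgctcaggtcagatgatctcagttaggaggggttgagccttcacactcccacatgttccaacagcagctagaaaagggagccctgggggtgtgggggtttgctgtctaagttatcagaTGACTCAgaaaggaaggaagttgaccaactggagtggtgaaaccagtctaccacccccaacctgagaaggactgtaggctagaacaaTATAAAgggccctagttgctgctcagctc

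The AP-1 letters stood in the promoters of *Sprr1a* (2 matches), *Sprr1b* and *Ivl*, against 6.7% of 32851 RefSeq promoters over the same 250 bases, and TATAAA stood in all 4, against 12.4%. The matches did not overlap each other, and the fifth promoter, of *Sfn*, held neither run of letters. A match is a description of the letters only.

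The members fell into those that were nearly silent in untreated colon and those that untreated colon already expressed. Without AOM–DSS and at day 22, *Trp63*, *Sprr1b*, *Sprr3* and *Ivl* were at or near 0 in all libraries, in all 14 of them for *Sprr3*. All 4 were present in most day 43 libraries, and 5 of the 6 day 70 libraries lay above every library of days 0 and 22 for each of them. Days 43 and 70 overlapped for *Sprr1b* and *Sprr3*. The remaining day 70 library, GW3965 replicate 2, stayed at or near the levels of day 0 for each of these 4. On the standard diet, all 3 day 70 libraries lay above all 4 day 0 libraries for 9 of the 10 members, the exception being *Dsg2*. On GW3965 this held for 3 members, *Dsg3*, *Sprr1a* and *Sprr1b*. For *Dsg3* and *Sprr1b* the margin was slight. In GW3965 replicate 2, *Dsg3* had 0.589 CPM, against at most 0.563 CPM at day 0 on GW3965, and *Sprr1b* had 1 count, against 0. The test described below called 33.2% and 21.9% of 17063 genes in these comparisons, which is another criterion than a lack of overlap. The share of all genes without overlap was not computed. Nothing is read from the counts of members, since the members were selected on such values.

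**Figure D1:**
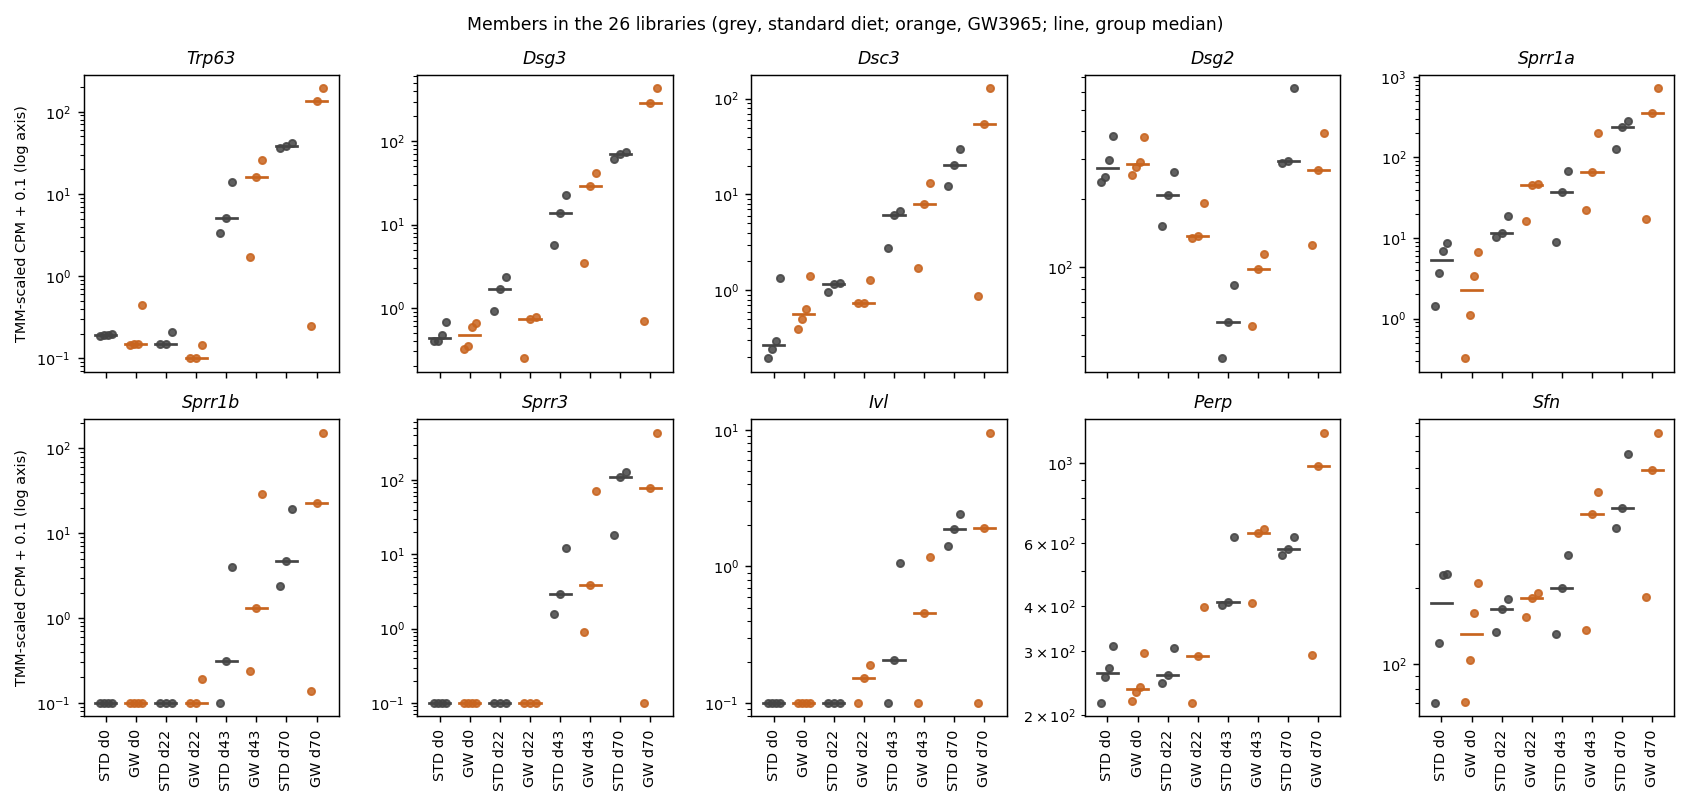
Each panel plots 1 member, with TMM-scaled CPM plus 0.1 on a log axis against the 8 groups of diet (STD grey, GW orange) and day, 1 point per library and a line at the group median. *Trp63*, *Dsg3*, *Dsc3* and the envelope genes climb from day 22 to day 70 with 1 low orange point at day 70, while *Dsg2* dips at day 43.

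*Trp63* had 0 to 8 counts in each of the 14 libraries of days 0 and 22, which is 0 to 0.346 CPM with a highest value in GW3965 day 0 after 22 diet days, replicate 2. A count of 0 allows up to 3 counts, or 0.0932 to 0.203 CPM across the libraries, and this limit covers counting error only. At day 43 the standard diet libraries had 4.94, 14.02 and 3.27 CPM and the GW3965 libraries 16.1, 1.62 and 25.4 CPM for replicates 1, 2 and 3. At day 70 the standard diet libraries lay close together at 42.0, 38.3 and 35.9 CPM, and the GW3965 libraries were spread over 194, 0.147 and 135 CPM. Every day 43 library was above every day 0 and day 22 library, and the diets overlapped at day 43 and at day 70. Day 70 means were 38.7 ± 3.08 CPM for the standard diet and 110 ± 99.3 CPM for GW3965 (SD, n = 3 each), and 164 CPM over the GW3965 libraries without replicate 2.

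At least 20 *Trp63* counts were found in 11 libraries. In them delta-N transcripts took 96.0% to 100% of the counts with a median of 100%, which is 11162 of the estimated counts pooled against 266 for TA. The TA counts came mostly from GW3965 day 70, with 151 in replicate 1 and 106 in replicate 3, beside 3636 and 3709 for delta-N. The split between the leading pair of delta-N transcripts, which start at the same base, was not stable, with the longer one between 2.23% and 100% of the 2 together. In these 11 libraries the form of p63 known from basal keratinocytes thus made up nearly all *Trp63* counts in both diets.

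The desmosomal cadherins lie on chromosome 18 between bases 19960930 and 20604521, with *Dsg3* and *Dsg2* next to each other and *Dsc3* further off. *Dsg3*, the main desmoglein of basal and oral squamous layers (chr18:20510274-20547459, plus strand), had 0.221 to 0.567 CPM in the day 0 libraries. At day 22 it had 0.806, 1.58 and 2.27 CPM on the standard diet and 0.642, 0.146 and 0.679 CPM on GW3965, with the standard libraries all above the GW3965 libraries by 0.81 against 0.68 CPM at the nearest. The test called 0.135% of all genes in this comparison, which is another criterion than a lack of overlap. The share of all genes without overlap was not computed. The *Dsg3* values of day 22 are 3 to 44 counts per library. At day 43 it rose to between 3.31 and 41.0 CPM over the 6 libraries. At day 70 the standard diet libraries had 60.5, 73.5 and 69.5 CPM and the GW3965 libraries 435, 0.589 and 287 CPM.

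*Dsc3*, the desmocollin that pairs with it (chr18:19960930-20002351, minus strand), had 0.0942 to 1.30 CPM at day 0 and 0.634 to 1.17 CPM at day 22. Its day 43 libraries had 5.97, 6.69 and 2.68 CPM on the standard diet and 7.81, 1.62 and 12.9 CPM on GW3965. At day 70 the values were 12.3, 29.6 and 20.4 CPM against 129, 0.774 and 54.5 CPM. At day 70, *Dsc3* shared with *Trp63* and *Dsg3* a highest value in GW3965 replicate 1 and a level at or near that of day 0 in GW3965 replicate 2. The order of the standard diet libraries differed, replicate 1 being the highest for *Trp63* and the lowest for both cadherins.

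*Dsg2* (chr18:20558074-20604521, plus strand) behaved otherwise. It had 238 to 381 CPM over the 8 day 0 libraries, and 264, 153 and 208 CPM on the standard diet against 191, 137 and 134 CPM on GW3965 at day 22. At day 43 it had 83.1, 39.0 and 56.8 CPM and 97.4, 54.2 and 114 CPM, so that all 6 libraries were below all others. The day 43 means were 0.204 of the day 0 mean on the standard diet and 0.294 on GW3965 in CPM. In TPM, a level scaled by transcript length and library, the difference was larger, with *Dsg2* means of 6.13 against 68.6 TPM on the standard diet and 11.7 against 70.3 TPM on GW3965. At day 70 it had 623, 294 and 289 CPM on the standard diet and 125, 394 and 270 CPM on GW3965, within or near the range of day 0 apart from the first library of each diet.

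The low *Dsg2* level was also seen relative to another epithelial gene. Per unit of *Epcam*, in TPM, *Dsg2* was 0.0520 to 0.0695 at day 0, 0.0256 to 0.0486 at day 22, 0.0120 to 0.0275 at day 43 and 0.0442 to 0.0777 at day 70. The ratio was lowest in the libraries with the largest share of counts on ribosomal protein genes. Among the day 43 libraries, the one with the smallest ribosomal share (10.0%, GW3965 replicate 3) and the best RIN (9.3) had the highest ratio. The ratio did not follow RIN throughout. The day 43 library of RIN 2.6 (standard diet replicate 1) had 0.0127, above 0.0124 at RIN 6.8 and 0.0120 at RIN 7.8. The day 22 library with the largest ribosomal share (10.7%, GW3965 replicate 3) had the lowest ratio of its day. The part of RNA quality and ribosomal share in the *Dsg2* dip was not tested.

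**Figure D2:**
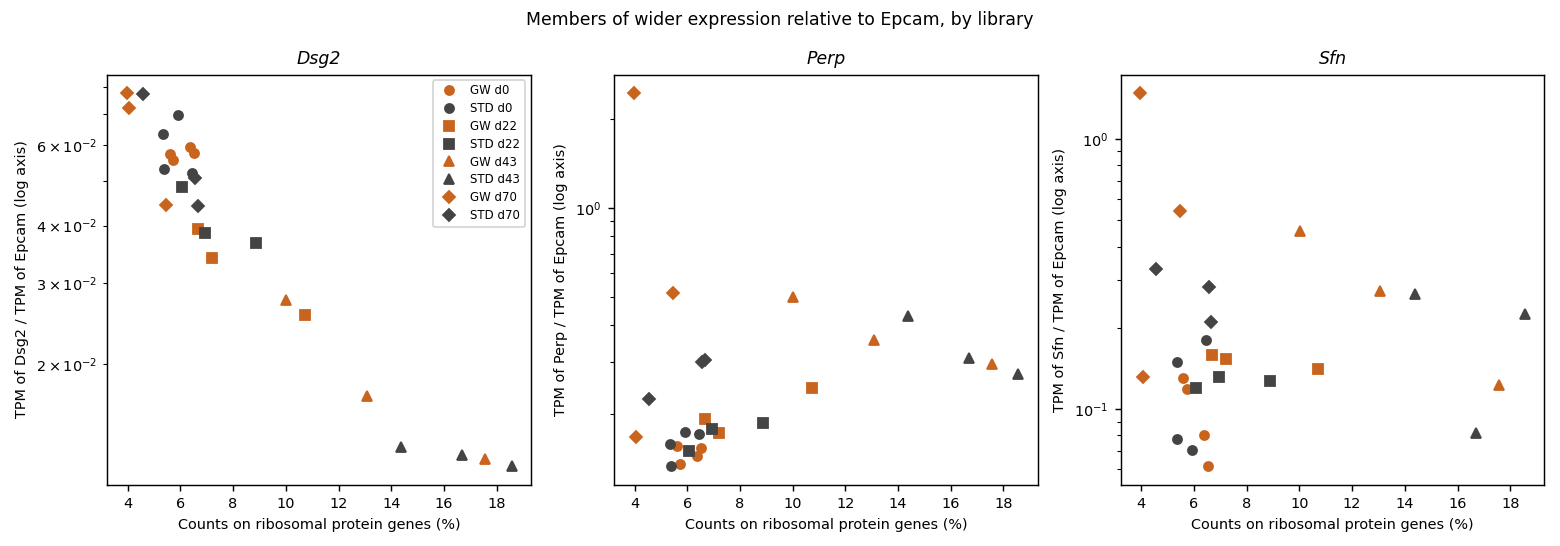
TPM of *Dsg2*, *Perp* and *Sfn* divided by TPM of *Epcam* (vertical log axis) against the ribosomal protein genes' percentage of all counts, 1 point per library, shaped by day and coloured by diet. *Dsg2* falls from 0.0777 to 0.0120 as the ribosomal percentage goes from 3.96 to 18.6, while *Perp* and *Sfn* show no such single course and peak in GW3965 day 70 replicate 1.

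Among envelope precursors, *Sprr1a* was the one already present in untreated colon, at 0.221 to 8.68 CPM. At day 22 it had 11.6, 10.3 and 18.6 CPM on the standard diet and 46.0, 16.2 and 47.0 CPM on GW3965, all above the day 0 libraries of their diet, when *Trp63* was still at 0 to 2 counts. At day 43 it had 8.83, 37.3 and 67.0 CPM and 66.7, 22.3 and 199 CPM. At day 70 the values were 127, 236 and 280 CPM and 726, 16.9 and 351 CPM. The group means were 2.64, 7.38 and 42.0 times the day 0 mean on the standard diet at days 22, 43 and 70, and 13.025, 34.3 and 130 times on GW3965, while the diets overlapped at each day. In TPM the day 43 differences were smaller, with *Sprr1a* means of 36.9 against 10.99 TPM at day 0 on the standard diet and 134 against 6.33 TPM on GW3965. On the standard diet in TPM, the day 22 and day 43 libraries, from 17.1 and 9.24 TPM upwards, overlapped those of day 0, which reached 18.5 TPM. In GW3965 day 70 replicate 2, where *Trp63* had 4 counts, *Sprr1a* had 460 counts and stood at the level of day 22.

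Its paralogue *Sprr1b* had 2 counts in 1 library and 0 in the other 13 of days 0 and 22. The day 43 libraries had 0, 0.214 and 3.86 CPM on the standard diet and 1.23, 0.135 and 28.8 CPM on GW3965, and the day 70 libraries 2.31, 19.4 and 4.57 CPM and 154, 0.0368 and 22.4 CPM. In counts, *Sprr1a* exceeded *Sprr1b* 4.72-fold in GW3965 day 70 replicate 1 and 61.3-fold in standard diet day 70 replicate 3, so that the ratio of the pair was not fixed.

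*Sprr3* (chr3:92456502-92458720), a small proline-rich protein of oral and oesophageal epithelium, was at 0 in all 14 libraries of days 0 and 22 and had at least 12 counts in each day 43 library. These had 1.46, 2.84 and 12.2 CPM on the standard diet and 3.82, 0.812 and 71.4 CPM on GW3965. At day 70 it had 18.03, 110 and 129 CPM and 435, 0 and 77.2 CPM. *Ivl* (chr3:92570902-92573735), which encodes involucrin, was the lowest member, with at most 2 counts in any library of days 0 and 22. It reached 0 to 1.08 CPM at day 43, 1.31, 2.31 and 1.78 CPM on the standard diet at day 70 and 9.47, 0 and 1.80 CPM on GW3965.

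*Perp* (chr10:18845020-18857073, plus strand) was abundant in untreated colon at 216 to 309 CPM and had 216 to 399 CPM at day 22. At day 43 it had 623, 403 and 412 CPM on the standard diet and 640, 409 and 656 CPM on GW3965, all above the day 0 libraries. On the TPM scale the standard diet mean at day 43 was instead lower than at day 0, at 159 ± 45.2 against 184 ± 32.5 TPM (SD, n = 3 and 4), so that its direction at day 43 depended on the scale. At day 70 it had 578, 555 and 625 CPM and 1216, 292 and 979 CPM, and the mean of the standard diet was 2.23 times that of day 0 on CPM and was above it on TPM too, at 426 ± 29.6 TPM (SD, n = 3).

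*Sfn* (chr4:133600556-133602168, minus strand) ranged from 70.0 to 227 CPM at day 0 and from 134 to 192 CPM at day 22. The day 43 libraries had 131, 200 and 271 CPM on the standard diet and 395, 136 and 480 CPM on GW3965, overlapping day 0 in both diets. On the standard diet the day 43 mean of *Sfn* was above day 0 in CPM, at 200.6 against 161.3 CPM, and below it in TPM, at 81.6 ± 23.8 against 143 ± 73.2 TPM (SD, n = 3 and 4). At day 70 it had 680, 417 and 345 CPM and 590, 184 and 828 CPM, above day 0 in all libraries but GW3965 replicate 2. Of the 31-base words of *Sfn*, 26.7% occur in transcripts of other genes, so that part of its counts is less certain than those of the other members, of which at most 0.43% do.

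For each of the 7 squamous members, *Trp63*, *Dsg3*, *Dsc3*, *Sprr1a*, *Sprr1b*, *Sprr3* and *Ivl*, GW3965 day 70 replicate 1 ranked first of the 26 libraries. Over these libraries, which share days and tissue composition, the log2 CPM values of the 7 had pairwise Pearson correlations of 0.792 to 0.974 (21 pairs, Spearman 0.683 to 0.905). *Perp* and *Sfn* correlated with them at 0.828 to 0.928 and 0.799 to 0.882, and *Dsg2* at -0.231 to -0.055. As a description, the member set thus held 9 genes of like pattern and 1 of another.

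**Figure D3:**
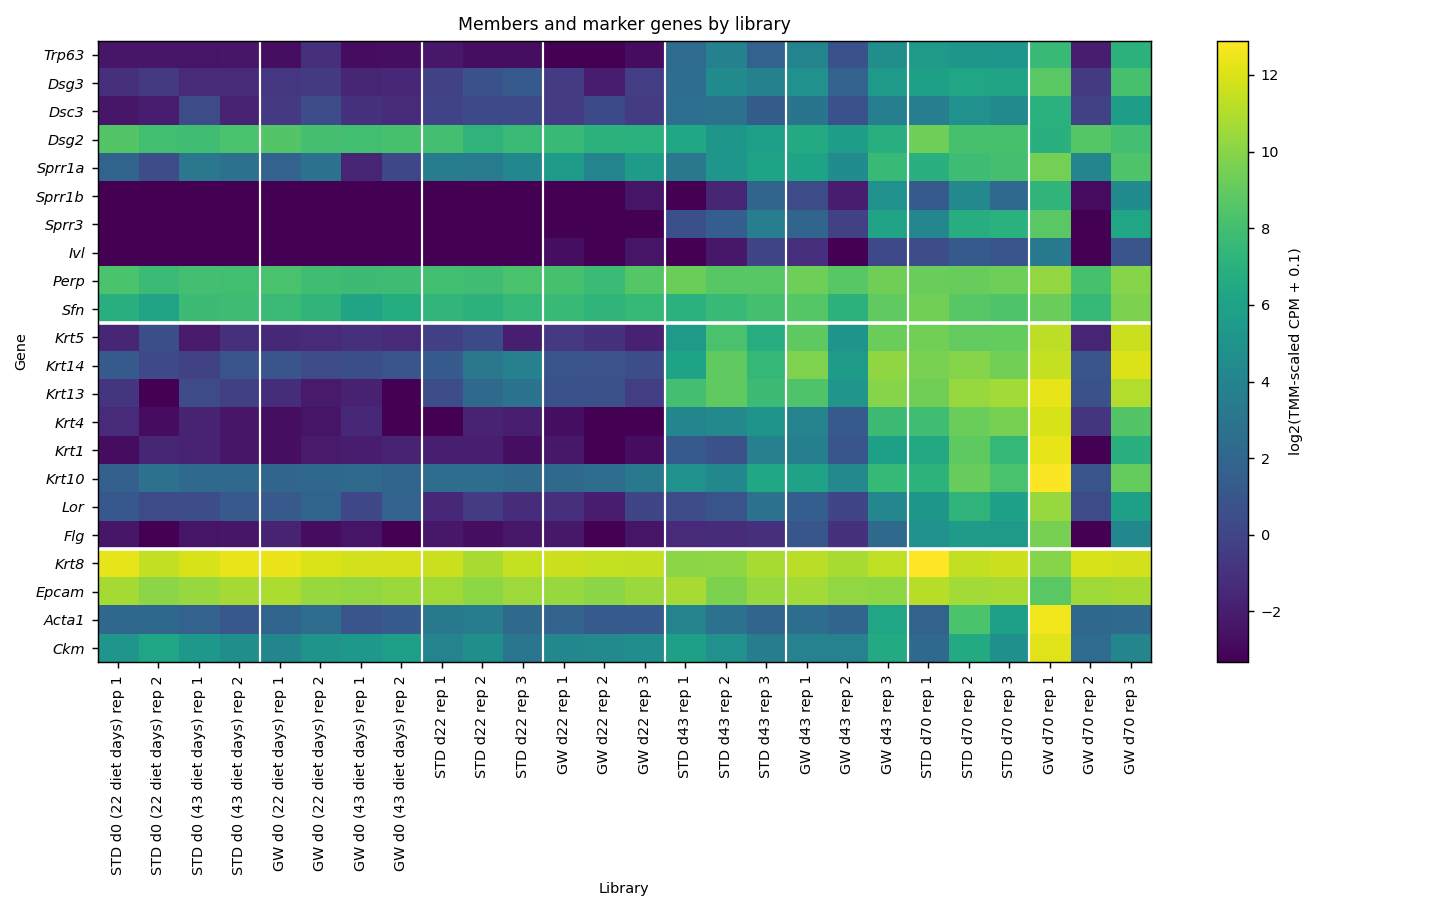
Log2 of TMM-scaled CPM plus 0.1 in the 26 libraries (columns, ordered by day and diet) for the 10 members, for keratins and envelope genes of squamous epithelium, and for columnar (*Krt8*, *Epcam*) and skeletal muscle (*Acta1*, *Ckm*) markers. Squamous rows light up in the day 43 and day 70 columns, except in GW3965 day 70 replicate 2, and the muscle rows in GW3965 day 70 replicate 1.

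Within the 11 libraries with at least 20 *Trp63* counts, the cadherins kept closer to *Trp63* than the envelope genes did. On TPM, *Dsg3* was 1.04 to 1.58 times *Trp63* in 10 of them and 3.82 times in standard diet day 43 replicate 3, and *Dsc3* was 0.305 to 1.08 times. *Sprr1a* ranged from 14.6 to 164 times and *Sprr3* from 0.895 to 17.1 times *Trp63*. *Ivl* was 0 to 0.786 times.

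The levels of upper layer genes relative to a basal keratin also varied between libraries. Relative to *Krt5*, the keratin of basal cells, *Krt4*, a keratin of the upper layers of lining mucosa, was 1.26, 1.46 and 1.59 times as high on TPM in standard diet day 70 replicates 2 and 3 and in GW3965 day 70 replicate 1, and 0.126 times in GW3965 day 70 replicate 3. *Krt1*, a keratin of the upper epidermis, was 1.80 times *Krt5* in GW3965 day 70 replicate 1 and 0.0361 times in replicate 3. The GW3965 day 70 replicates 1 and 3, with 194 and 135 CPM of *Trp63*, thus differed in the levels of upper layer genes relative to *Krt5*, with *Sprr3* at 0.348 and 0.05 times *Krt5*. Since *Krt4* and *Krt1* mark different squamous tissues, layers and kind of tissue cannot be told apart in these ratios.

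**Figure D4:**
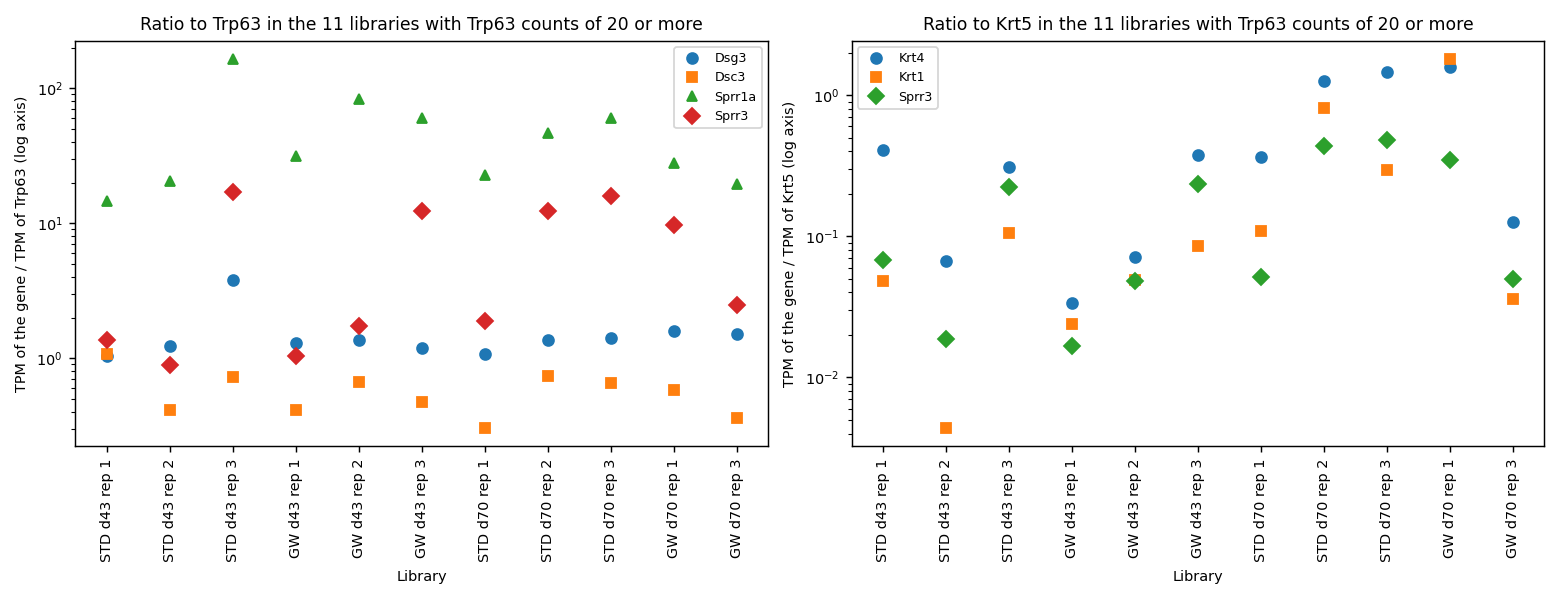
TPM of cadherin and envelope genes divided by TPM of *Trp63* (left) and TPM of *Krt4*, *Krt1* and *Sprr3* divided by TPM of *Krt5* (right), on vertical log axes, in the 11 libraries with at least 20 *Trp63* counts. *Dsg3* stays near 1 apart from 3.82 in standard diet day 43 replicate 3, whereas *Sprr3* spans 0.895 to 17.1.

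The genes whose log2 CPM was most like *Trp63* over the 26 libraries were *4833423E24Rik* (Pearson 0.990, Spearman 0.931), *Tmprss11b*, a transmembrane serine protease (0.981), *Krt5* (0.978), *Calml3*, a calmodulin-like protein of keratinocytes (0.977), and *Wnt7b*, a Wnt ligand (0.977), with correlations of 0.968 to 0.987 without the 2 libraries highest in *Trp63*. Those most like *Sprr1a* were *Psat1* (0.907), which makes serine, *Tgm1* (0.904), the transglutaminase that cross-links the envelope, *Fam57a* (0.898), *Slc7a11* (0.892), the cystine transporter, and *Bcat1* (0.892), which transaminates branched-chain amino acids. Those most like *Dsg2* were *Mgat5* (0.984), a Golgi glycosyltransferase, *Smpd3* (0.972), a sphingomyelinase, *Erlin2* (0.969), *Taok3* (0.965) and *Mansc1* (0.962). None of the *Dsg2* group is a squamous gene of the lists used here, and *Mgat5* showed the same dip, with 84.8 to 118 CPM at day 0 and 24.8 to 45.0 CPM at day 43.

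Genes that work with the members were tested as lists of desmosome partners, cornified envelope partners, stratified epithelium keratins, and basal layer adhesion and stratification factors, 85 companion genes in all of which 81 passed the filter on low counts. Many of these were near 0 at day 0 and passed it through the day 43 and day 70 libraries where they are high, so that they had to differ somewhere. The lists were also chosen with earlier results of these data known. Their counts of genes called are therefore a description, as are the fold changes, SEs and adjusted p-values of single companion genes given below. Nothing is read from an excess over the share of all genes or from these p-values. Differences were tested with the quasi-likelihood F-test of edgeR over 8 groups with the ribosomal percentage as a term and FDR below 0.05 over the 17063 genes. The 3 comparisons of a diet with its day 0 share those day 0 libraries. Counts from other fits, DESeq2 among them, and with a library left out are given without the share of all genes.

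At day 70 against day 0 on the standard diet, 67 of the 81 companion genes rose and 3 fell, where 33.2% of all genes tested were called. All 13 keratins tested rose, with 12 of 13 desmosome partners, 28 of 37 envelope partners and 14 of 18 basal layer genes. The median log2 fold change of the 81 was 4.88, or 4.04 with the 18 genes at 0 in every day 0 library set to the bound that 3 counts allow, against 0.04 over all genes. *Krt5* went from 0.128 to 1.37 CPM at day 0 to 503 to 698 CPM, and *Krt14*, its partner in basal cells, from 0.766 to 2.45 to between 692 and 975 CPM (log2 fold change 9.20 ± 1.42 SE, edgeR adjusted p = 0.000174). *Krt15*, another basal keratin, rose by a log2 fold change of 6.79 ± 0.95 SE (adjusted p = 8.14e-05). *Krt13*, a keratin of lining mucosa, went from 0 to 1.19 CPM to 680 to 1585 CPM, and *Krt6b*, a keratin of activated keratinocytes, from at most 2 counts to 164 to 471 CPM.

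The basal layer genes *Grhl3* and *Zfp750*, transcription factors of epidermal differentiation, rose by 4.77 ± 0.63 and 2.45 ± 0.39 on the log2 scale (SE, adjusted p = 5.79e-05 and 0.000197), and *Col17a1*, the hemidesmosomal collagen, by 7.01 ± 0.99 (adjusted p = 8.66e-05). Of the desmosome partners, the plaque genes *Pkp1* and *Ppl* rose by 2.48 ± 0.52 and 3.10 ± 0.66 (adjusted p = 0.00142 and 0.00173), and *Dsg1c* from at most 1 count to 0.789 to 1.48 CPM. Of the envelope partners, *Tgm1* rose by 6.01 ± 0.99 (adjusted p = 0.000265), and *Sprr2b* and *Sprr2h* from at most 5 counts to 2.63 to 6.14 and 5.75 to 22.0 CPM. The counts of *Sprr2b* are less certain, since 31.9% of its 31-base words occur in other genes. The 3 genes that fell, named after their values were seen, were *Tgm3*, a transglutaminase that untreated colon expressed at 389 to 1040 CPM (log2 fold change -3.69 ± 0.62 SE), *Dst* (-1.80 ± 0.36 SE), which encodes dystonin, and *Klf4* (-0.83 ± 0.28 SE), a transcription factor of both epidermis and colonic goblet cells.

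On GW3965 at day 70 against day 0, 63 companion genes rose and 1, *Tgm3*, fell (-2.75 ± 0.60 SE, adjusted p = 0.00325), where 21.9% of all genes were called. All 13 keratins rose again, with 11 desmosome partners, 29 envelope partners and 10 basal layer genes. The median log2 fold change was 6.82, or 5.35 with the 19 genes at 0 in every day 0 library at their bound, against 0.10 over all genes. *Grhl1*, a factor of desmosomal gene expression, was among the basal layer genes with the smallest p, beside *Col17a1* (7.22 ± 0.98 SE, adjusted p = 8.54e-05) and *Grhl3* (4.64 ± 0.63 SE). Replicate 2 had *Krt5* at 0.221 CPM and *Krt14* at 1.84 CPM, against 2497 and 3070 CPM of *Krt5* in replicates 1 and 3. Without replicate 2, 70 rose and 2 fell, and without replicate 1, 57 rose and 2 fell.

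At day 43 *Krt5*, *Krt13* and *Krt14* were above every day 0 library in all 6 libraries, while the test called few companion genes. On GW3965, 14 companion genes rose and 0 fell, where 0.938% of genes were called, namely 7 keratins, 6 envelope partners and 1 basal layer gene. *Krt13* had 34.6 to 989 CPM, *Krt14* 45.9 to 1167 CPM and *Tgm1* 5.61 to 77.8 CPM in these 3 libraries. *Krt14* changed by a log2 fold change of 10.67 ± 1.76 SE and *Tgm1* by 7.04 ± 1.33 SE (edgeR adjusted p = 0.00532 and 0.011). *Sprr2h*, *Sprr2k*, *Krt6b* and *Col17a1* were also called. Without replicate 3 at day 43, 0 companion genes passed.

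On the standard diet at day 43, edgeR called 0 companion genes and 0% of all genes, although 28 of the 81 had an unadjusted p below 0.05 and DESeq2 called 16. *Krt5* had 43.0 to 303 CPM and *Krt13* 225 to 491 CPM there, against at most 1.37 and 1.19 CPM at day 0. Without the ribosomal term, 47 companion genes were called on the standard diet, 38 of them higher, and 55 on GW3965, 49 of them higher. The share of all genes called in that fit is not given here, so these counts have no background beside them. The ribosomal share separated day 43 from day 0 without overlap, so that day and ribosomal share cannot be told apart in this comparison.

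At day 22 the shares of companion genes called, 2 and 8 of 81, did not exceed those of all genes. On the standard diet 2 rose, *Sprr2k* and *Sprr2h* (adjusted p = 0.0275 and 0.0454), where 7.73% of all genes were called, and 0 passed without any 1 of 6 of the 7 libraries compared. On GW3965, 7 rose and 1, *Tgm3*, fell (-2.50 ± 0.61 SE, adjusted p = 0.0103), all envelope partners, where 12.6% were called. *Sprr2h* went from 0 to 0.173 CPM at day 0 to 8.49 to 57.3 CPM, and *Sprr2k* from 0 in all 4 libraries to 2.24 to 9.74 CPM. No keratin, desmosome partner or basal layer gene was called by edgeR at day 22 in either diet, and 10 and 15 of the 81 companion genes had an unadjusted p below 0.05 on the standard diet and on GW3965. *Krt5* stayed at 0.155 to 1.17 CPM. On the standard diet *Krt14* had 2.58 to 13.4 CPM, against at most 2.45 CPM at day 0. *Krt13* had 1.34 to 7.28 CPM there, against at most 1.19 CPM. On GW3965 *Krt13* had 0.679 to 1.60 CPM against at most 0.344 CPM, and *Krt14* overlapped day 0. All 13 keratins tested had a positive log2 fold change on the standard diet and 11 on GW3965. Their medians were 1.04 and 1.23, against -0.001 and 0.02 over all genes. *Sprr2h* was at its day 22 level while *Trp63* had 0 to 2 counts.

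**Figure D5:**
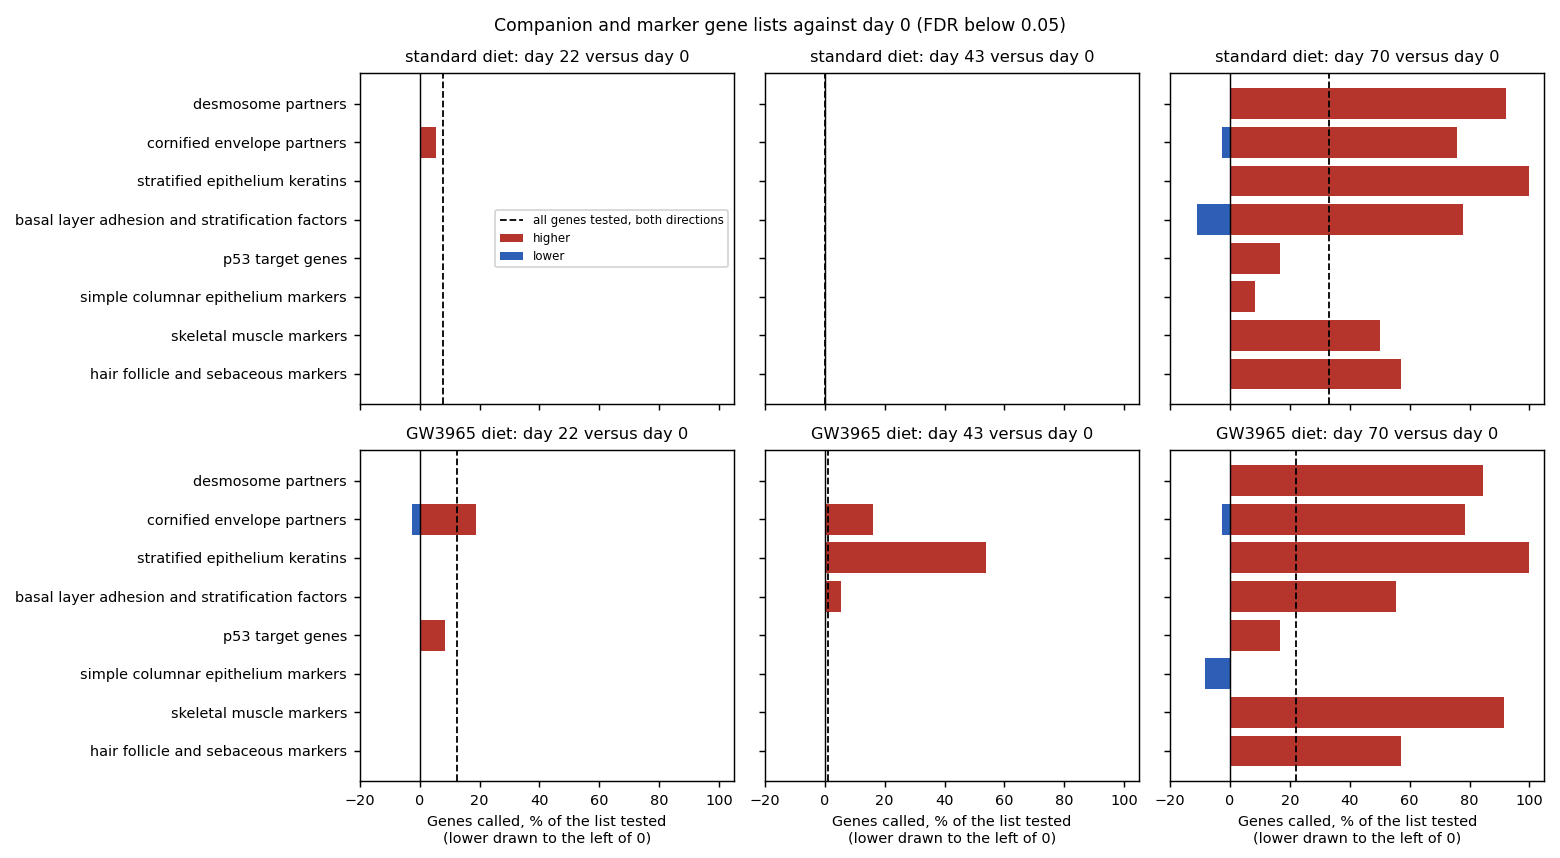
Share of the genes tested in each list that were higher (red, to the right) or lower (blue, to the left) than day 0 at an FDR below 0.05, by diet and day, with a dashed line at the share of all genes tested. At day 70 all 13 keratins are called in both diets, at day 22 bars appear mainly for the envelope partners.

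Between the diets, edgeR called 0 companion genes at each of days 0, 22, 43 and 70, where 0.0293%, 0.135%, 0.0293% and 1.83% of all genes were called. At an unadjusted p below 0.05 there were 0, 5, 4 and 10 of the 81, and DESeq2 called 1, 7, 0 and 2. At day 70, 69 of the 81 had a positive log2 fold change (GW3965 over standard diet) with a median of 0.80, against 0.02 over all genes. Without GW3965 replicate 2, 7 companion genes were called higher on GW3965, and without GW3965 replicate 3, 5 were called lower. The difference of the diet effect at day 22, 43 or 70 from that at day 0 was called for 0 companion genes each, with 2, 2 and 1 at an unadjusted p below 0.05 and 3, 1 and 1 by DESeq2, where 0.0234%, 0% and 0% of all genes were called by edgeR.

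Markers of other tissues moved with some of these libraries. The 12 skeletal muscle markers summed to 24.2 to 90.04 CPM at day 0. At day 43 they summed to 203, 57.0 and 38.9 CPM on the standard diet and to 32.1, 29.5 and 430 CPM on GW3965. In the standard diet day 70 libraries the sums were 11.1, 978 and 190 CPM. On GW3965 at day 70 the sums were 26443, 14.6 and 26.7 CPM, with *Acta1*, skeletal actin, at 5911 CPM and *Ckm*, muscle creatine kinase, at 4323 CPM in replicate 1. At day 70 against day 0, 6 of the 12 rose on the standard diet and 11 of 12 on GW3965, beside 33.2% and 21.9% of all genes called, with *Mylpf*, *Acta1* and *Myl1* (edgeR adjusted p = 0.0139, 0.016 and 0.02) and *Tnni2*, *Acta1* and *Actn3* (0.00205, 0.00363 and 0.00542) of smallest p. Without GW3965 replicate 1 the mean of *Acta1* at day 70 was 4.40 CPM, against 3.30 CPM at day 0, and that of *Ckm* 10.9 against 36.8 CPM, so that the high muscle marker levels on GW3965 came from this library. The hair follicle and sebaceous markers summed to 506 CPM in GW3965 replicate 1 and 177 CPM in standard diet replicate 2. The other day 70 libraries had 5.94, 15.3, 1.14 and 9.40 CPM, against 1.23 to 3.25 CPM at day 0. Of the 7 tested, 4 rose in each diet. Among them were *Krt79*, a keratin of sebaceous ducts (edgeR adjusted p = 0.00369 and 0.00431), and *Krt75*, a keratin of hair follicles (0.0273 and 0.0163). At day 70 *Krt79* had 0.263, 70.4 and 4.86 CPM on the standard diet and 219, 0.037 and 0.812 CPM on GW3965, against at most 0.141 CPM at day 0. It passed the filter through the libraries where it is high, so these p-values are a description. The columnar markers summed to 3594 CPM in GW3965 day 70 replicate 1 and to 10761 to 23512 CPM in the other day 70 libraries, against 9675 to 18013 CPM at day 0. Of the 12 columnar genes, *Krt18*, the partner of *Krt8*, rose on the standard diet (log2 fold change 1.49 ± 0.37 SE, adjusted p = 0.0048) and *Cdx1*, an intestinal transcription factor, fell on GW3965 (-1.47 ± 0.41 SE, adjusted p = 0.0149). Beside the day 70 muscle sums of 26443, 14.6 and 26.7 CPM on GW3965, *Trp63* had 194, 0.147 and 135 CPM. Beside 11.1, 978 and 190 CPM on the standard diet, *Trp63* had 42.0, 38.3 and 35.9 CPM. The day 43 muscle sums stood beside 4.94, 14.02 and 3.27 CPM of *Trp63* on the standard diet and 16.1, 1.62 and 25.4 CPM on GW3965. The part of the tissue taken with each biopsy in the member levels was not tested.

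Since *Perp* and *Sfn* are targets of p53, 12 other p53 target genes were tested. Their summed level was 643 to 797 CPM at day 0 and 704 to 773 CPM at day 70. At day 70 *Aen* and *Bax*, an apoptosis effector, rose on the standard diet (log2 fold change 0.70 ± 0.20 and 0.53 ± 0.16 SE, adjusted p = 0.00965 and 0.016), and *Phlda3* and *Sesn2* rose on GW3965 (2.08 ± 0.50 and 1.12 ± 0.33 SE, adjusted p = 0.00586 and 0.0206). At day 22, *Bax* rose on GW3965 (0.53 ± 0.17 SE, adjusted p = 0.0465). The count of 2 of 12 in each diet at day 70 stands beside 33.2% and 21.9% of all genes called.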

How the data were processed

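Bulk RNA of mouse colon was measured in 26 libraries. The authors quantified reads against GRCm38 transcripts with kallisto, whose version is not given in the sources used here, and deposited estimated counts and TPM per transcript. From these, estimated counts were summed per gene with GENCODE vM21 names, which matched 116728 of 119414 transcripts, the rest holding 0.615% to 0.999% of counts, and rounded to whole numbers. Deposited TPM values were summed likewise. Genes were filtered with filterByExpr over the 8 groups of diet and day, scaled by TMM and tested with the quasi-likelihood test of edgeR 4.0.16 in R 4.3.3, with the share of counts taken by 88 ribosomal protein genes, in percent, as a covariate and Benjamini-Hochberg adjustment at 0.05. The authors' methods describe another edgeR model, with a percentage of ribosomal RNA interacting with diet and time and a likelihood ratio test. DESeq2 1.42.0, other scalings and filters, and the fit without the covariate were alternatives. The procedure was tested on simulated data. Correlations used log2 CPM with a prior count of 2.

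The members and gene lists were chosen with earlier results of these data known. The text names all 10 members, up to 3 genes of smallest p per list and comparison among those called, the markers *Krt5*, *Krt14*, *Krt13*, *Krt4*, *Krt8*, *Epcam*, *Acta1* and *Ckm*, and the 5 genes most like *Trp63*, *Sprr1a* and *Dsg2*. Genes named outside this rule (*Krt1*, *Dst*, *Klf4* and the reference to *Tgm3* at other days) were chosen after their values were seen. All 10 members passed the filter, the low ones through day 43 and day 70 only.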

Additional observations from a re-analysis of the deposited data

Results flagged for a closer look

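At day 0, 2 values stood apart from the other 3 libraries of their group by more than Dixon's critical value at 95% for a group of 4. *Trp63* was at 0.346 CPM in the GW3965 day 0 library of 22 diet days, replicate 2, which is 8 counts, against 0.0441 to 0.0497 CPM in the others, 1 count each. *Dsc3* was at 1.23 CPM in the standard diet day 0 library of 43 diet days, replicate 1, which is 29 counts, against 0.0942 to 0.198 CPM. These are 2 of 30 groups examined, and chance gives about 1 in 20.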

How the results depend on the processing

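With 1 library left out, the GW3965 day 70 means ran from 67.5 to 164 CPM for *Trp63*, from 38.6 to 256 CPM for *Sprr3* and from 11.2 to 88.1 CPM for *Sprr1b*. Of 60 directions of member means against day 0, 8 were reversed on TPM and 2 with plain total counts, *Perp* at day 22 and *Sfn* at day 43 on the standard diet for both scales. The others on TPM were *Dsc3* at day 22 and *Perp* at day 43 on the standard diet, and *Dsg3*, *Dsc3*, *Perp* and *Sfn* at day 22 on GW3965. *Trp63* on the standard diet at day 0 was 0.1 CPM and *Perp* on it at day 70 was 630 CPM under plain totals. The counts of companion genes called at day 70 against day 0 stayed within 1.5 times, at 68 to 73 on the standard diet (60 to 65 with 1 library left out) and 63 to 69 on GW3965 (53 to 72). DESeq2 called 1, 7 and 2 between diets at days 0, 22 and 70, against 0 by edgeR, and 3, 1 and 1 for the change of the diet effect at days 22, 43 and 70. Against day 0 it called 8 and 17 at day 22 and 16 and 30 at day 43 on the standard diet and GW3965. Without the ribosomal term the counts at day 43 were 47 and 55. At day 22 on the standard diet, 1 was called without the filter and 1 without the 3 libraries of RIN under 8, an alternative chosen after seeing the data, which left 0 at day 43 on GW3965. Leaving out 1 library gave 0 to 7 between diets at day 70, 0 to 2 on the standard diet and 5 to 9 on GW3965 at day 22, the lowest without GW3965 day 22 replicate 1 or either day 0 library of 43 diet days, and 0 to 13 on GW3965 at day 43. The cause was not tested. Replicate numbers did not pair the samples (13 pairs, mean correlation -0.066, range -0.37 to 0.201), and with a replicate block 0 companion genes were called between diets at each day. A level below 3 counts limits what can be said of *Ivl* and *Sprr1b* before day 43.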
